A study of Mus musculus with 9 samples.

Results

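Interferon-stimulated genes and guanylate-binding proteins were followed in mouse colon as 1 set of 45 genes, taken by name from the 21959 genes of the deposited table. All 45 were found, and all 45 were among the 14921 genes that passed the filter on low counts. Transcripts were measured by poly-A RNA sequencing of whole colon from wild-type (WT) mice in 3 groups of 3 libraries. The CDs group received dextran sulfate sodium (DSS), a polymer that injures the colon lining and causes colitis, together with lotus node charcoal carbon dots, which are nanometre-sized carbon particles. The Model group received DSS alone, and the Blank group received neither. The labels name no strain, age, dose or collection day, and no transgene or deletion is named in any group. The series description calls the replicates biological.

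Interferons are secreted proteins that make cells resist infection. Type I interferons act through the receptor chains Ifnar1 and Ifnar2 and switch on genes mainly through a complex that contains Stat2 and Irf9, whereas interferon gamma, made by T cells and natural killer cells, acts through Ifngr1 and Ifngr2. The induced genes overlap, but Ifit, Oas and Mx genes are classically read as type I targets, and guanylate-binding proteins, immunity-related GTPases, Cxcl9 and the immunoproteasome lean towards interferon gamma. In the gut, these genes are expressed by epithelial, stromal and immune cells, so a level in whole colon mixes all of them, and fewer cells of a type cannot be told apart from less RNA per cell.

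The DNA letters that these transcription factors read can be shown for the promoters on which the comparison of type I-leaning and interferon gamma-leaning genes rests. The complex with Stat2 and Irf9, and the interferon regulatory factors, recognise an interferon-stimulated response element (ISRE), searched here as GAAANNGAAA and, on the other strand, TTTCNNTTTC. Promoters that respond to interferon gamma often carry a gamma-activated site (GAS), searched as TTCNNNGAA, which reads the same on both strands. The 3 type I-leaning and the 3 interferon gamma-leaning genes of smallest p in the comparison of Model with Blank that have an entry among the RefSeq promoters (build GRCm38.p6) are given here over the 170 bases before the start. All 6 lie on the plus strand and run 5′ to 3′, and capitals mark the letters of an ISRE or a GAS match.
Ifit2, chr19:34550524-34550693: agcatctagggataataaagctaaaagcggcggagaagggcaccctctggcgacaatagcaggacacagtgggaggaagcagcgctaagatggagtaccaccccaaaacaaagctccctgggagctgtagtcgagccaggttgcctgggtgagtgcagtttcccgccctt
Ifit3, chr19:34583359-34583528: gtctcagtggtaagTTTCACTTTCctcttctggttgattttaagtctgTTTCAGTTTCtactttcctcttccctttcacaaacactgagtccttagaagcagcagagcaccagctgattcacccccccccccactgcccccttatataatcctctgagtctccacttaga
Ifit1, chr19:34640719-34640888: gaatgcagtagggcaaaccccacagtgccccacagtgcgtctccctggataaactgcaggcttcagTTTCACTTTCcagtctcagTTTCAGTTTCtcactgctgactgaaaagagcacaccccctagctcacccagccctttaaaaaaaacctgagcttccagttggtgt
Gbp5, chr3:142496764-142496933: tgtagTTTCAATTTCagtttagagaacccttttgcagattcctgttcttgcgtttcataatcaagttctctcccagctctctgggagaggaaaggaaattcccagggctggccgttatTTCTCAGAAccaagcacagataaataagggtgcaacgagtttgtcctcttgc
Gbp3, chr3:142559874-142560043: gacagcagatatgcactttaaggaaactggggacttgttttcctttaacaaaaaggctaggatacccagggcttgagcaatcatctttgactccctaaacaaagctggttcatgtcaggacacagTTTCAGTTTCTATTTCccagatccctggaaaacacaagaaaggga
Gbp7, chr3:142530166-142530335: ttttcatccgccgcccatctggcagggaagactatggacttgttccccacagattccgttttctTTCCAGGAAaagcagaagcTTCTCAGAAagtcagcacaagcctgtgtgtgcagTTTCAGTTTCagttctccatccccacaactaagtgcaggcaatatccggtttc

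Ifit3 held ISRE matches starting 156 and 122 bases before the start, and Ifit1 at 104 and 85. Gbp7 held an ISRE match at 53 and GAS matches at 106 and 87, and Gbp3 overlapping ISRE matches at 45 and 39. Gbp5 held an ISRE match at 165, a GAS match at 52 and, before the printed stretch, another GAS match at 245. Ifit2 has 2 windows in the table and the printed one shows no match. A GAS match at 241 was found for Ifit2 over its 2 windows, without a record of which window holds it. Over windows of 250 bases before to 50 bases after the start, 34 of the 45 genes had an entry, and 18 of them (52.9%) held an ISRE match and 11 (32.4%) a GAS match. The shares over the 27025 genes of the promoter table were 3.99% and 9.55%. An ISRE match was present in 4 of 7 type I-leaning genes with an entry and in 6 of 10 interferon gamma-leaning ones, and a GAS match in 2 of 7 and 4 of 10, so both motifs occurred in both sets. Among genes called higher in Model, 8 of 9 with an entry held an ISRE match, beside 10 of 25 of those not called. These are matches of letters, not measured binding.

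Libraries held 13868864 to 19940300 counted reads. For a count of 0, 3 reads were taken as an approximate 95% upper limit. These corresponded to 0.15 to 0.216 counts scaled to the library total as counted, in the unit CPM. Colon epithelial markers summed to 5424 to 9327 CPM in CDs, 4971 to 8634 CPM in Model and 9327 to 10741 CPM in Blank. Of these 8 markers 2 were called lower in CDs, beside 13.8% of all genes, and 3 in Model, beside 19.6%, and none was called higher. Pancreatic acinar transcripts summed to 4800 CPM in Model 1, 41242 CPM in Model 3 and 154 CPM in CDs 1, beside 0.707 to 1.04 CPM in the other libraries, and prostate and seminal vesicle transcripts to 1497 CPM in Blank 2 and 169 CPM in Blank 3, beside 1.02 to 2.57 CPM elsewhere. DSS-treated colon also differed in cell markers. In Model versus Blank, where 24.5% of all genes were called higher, 6 of 8 macrophage, 6 of 6 neutrophil and 3 of 5 conventional dendritic cell markers were called higher. So were 6 of 6 endothelial and 6 of 6 fibroblast markers. The counts were 1 of 6 for T cell, 1 of 6 for natural killer, 0 of 3 for plasmacytoid dendritic cell and 0 of 5 for smooth muscle markers, not above the share of all genes. The counts in CDs, where 21.8% of all genes were called higher, were the same for these lists except T cell markers, of which 3 of 6 were called higher. The summed macrophage markers stood at 920 to 1188 CPM in CDs, 863 to 1142 CPM in Model and 289 to 394 CPM in Blank, and no marker of these cell lists was at 0 throughout a group. The part of these markers and transcripts in the results below was not tested beyond leaving libraries out.

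A subset of the 45 genes was higher in DSS-treated than in untreated colon, and the guanylate-binding proteins were the role group called throughout. All 6 guanylate-binding proteins, 3 of 4 immunity-related GTPases, 1 of 2 chemokines, 1 of 3 Ifit genes, 1 of 5 Oas genes and 3 of 10 other antiviral effectors were called higher in Model (edgeR quasi-likelihood F test, adjusted p under 0.05 over all genes). None of the 5 transcription factors, 3 nucleic acid sensors, 5 antigen-processing genes or 2 Mx genes was. That makes 15 of 45, or 33.3%, beside 24.5% of all 14921 genes called higher. None was called lower, beside 19.6% of all genes. In CDs versus Blank, 23 of 45 (51.1%) were called higher, beside 21.8% of all genes, and none lower, beside 13.8%. The 23 included all 15 of Model, and both comparisons share the Blank libraries. The median log2 fold change of the 45 genes was 1.02 in CDs and 0.74 in Model, beside 0.01 and -0.03 over all genes.

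These counts rest on few libraries. Without Model 2 the Model count became 28, beside 19.3% of all genes called higher in that setting. Without Model 3 or Blank 3 it was 9, beside 19.4% and 20% of all genes. Without Blank 2 it was 8, beside 19.5%, and without Model 1 it was 10, beside 24.4%. So without Model 1, Model 3, Blank 2 or Blank 3 the share of the 45 genes called in Model was about that of all genes. The CDs count was 14 without CDs 1, 12 without CDs 2 or Blank 3, and 10 without Blank 2. Beside these, 19.3% of all genes were called higher in CDs without CDs 1, 16.8% without CDs 2, 16.6% without Blank 3 and 15.4% without Blank 2. Without Blank 2 and Blank 3, the libraries with prostate transcripts, Blank 1 alone stood for Blank. The median log2 fold change of the 45 genes was then 0.47 in CDs and 0.36 in Model, beside 0.02 and -0.01 over all genes. Leaving out the libraries that carry pancreatic transcripts (Model 1, Model 3 and CDs 1) reduces Model to Model 2. In that setting the median was 0.82 in CDs and 0.08 in Model, beside -0.01 and -0.04 over all genes. Calls that held with each single library left out were those of Gbp3, Gbp4, Gbp5, Gbp7, Gbp9, Ifit2, Iigp1 and Trim30a in Model, and of Bst2, Cxcl10, Gbp2, Gbp3, Gbp4, Gbp5, Gbp7, Gbp9, Iigp1 and Trim30a in CDs.

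**Figure D1:**
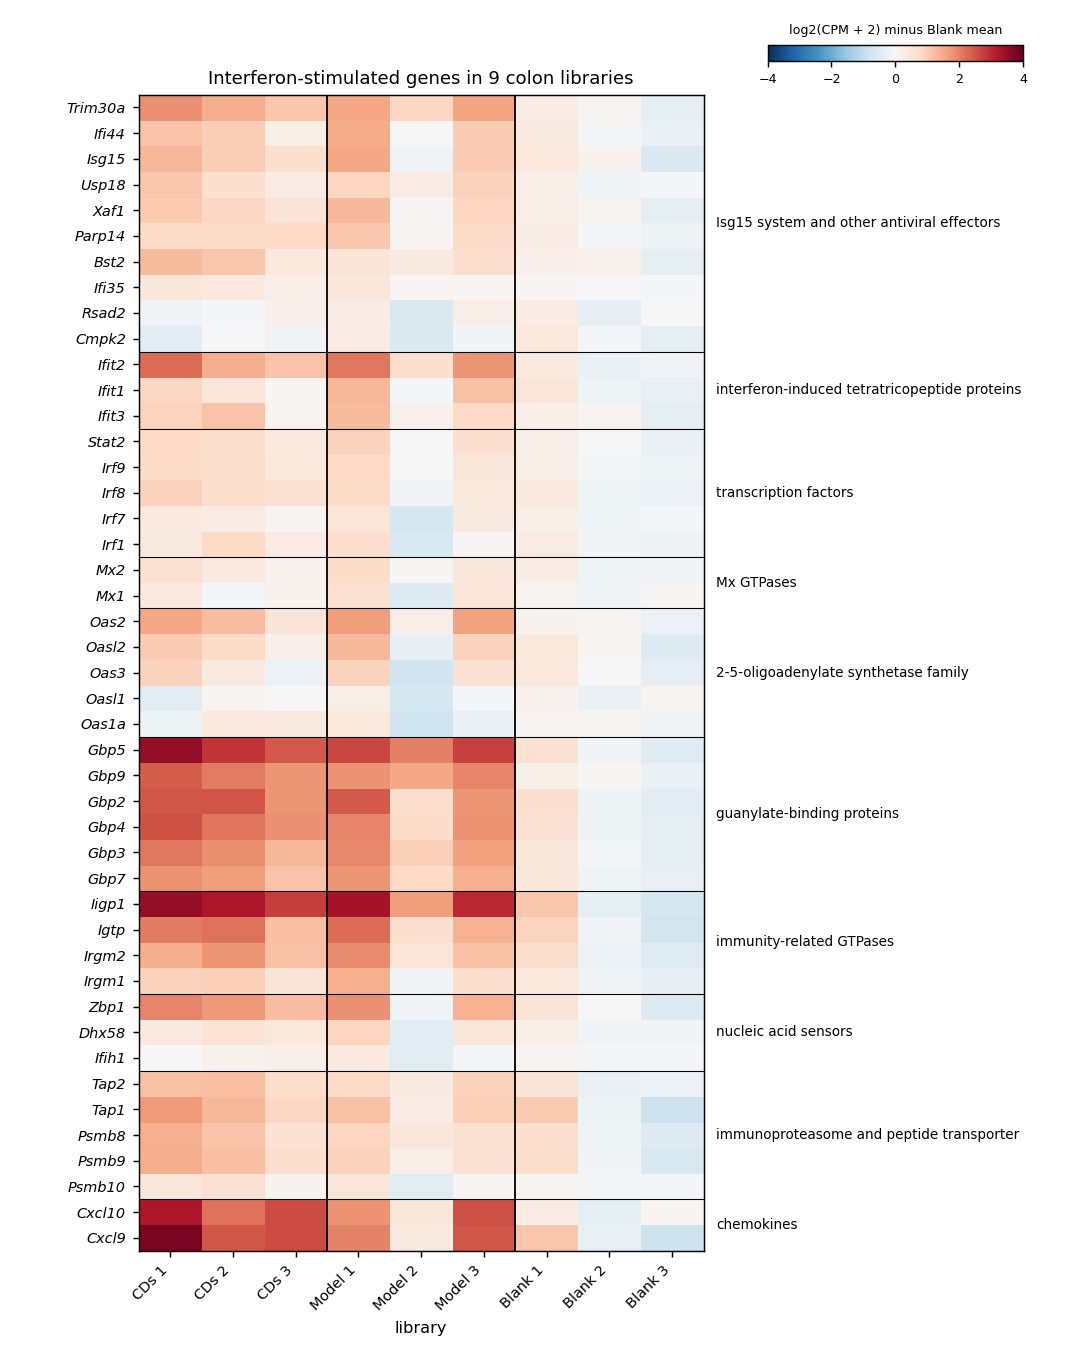
Level of each of the 45 genes (rows, grouped by role) in each of the 9 libraries (columns), as log2(CPM + 2) minus the mean of the 3 Blank libraries. Red marks levels above the Blank mean: Gbp, Iigp1 and Cxcl genes are red in CDs and in Model 1 and Model 3, and paler in Model 2.

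The interferons themselves were at the edge of detection. Of 10 interferon genes none passed the filter. Ifng, which encodes interferon gamma, had 16, 8 and 3 reads in CDs 1, CDs 2 and CDs 3, 7, 0 and 6 reads in Model 1, Model 2 and Model 3, and 0 reads in each Blank library. Against a floor of 3 reads over the 3 Blank libraries together, Ifng scaled to the group's total reads was at least 9.04-fold higher in CDs and at least 3.97-fold higher in Model. These bounds take the reads of CDs and Model as counted, and the 27 reads in CDs have an exact 95% Poisson interval of 17.8 to 39.3 and the 13 in Model one of 6.92 to 22.2, for counting error only. They also rest on single libraries: the bound in CDs was 5.42-fold without CDs 1, 5.81-fold without Blank 1 and 6.0-fold without Blank 2, and the bound in Model 6.69-fold without Model 2, 2.56-fold without Model 1 or Blank 1 and 2.64-fold without Blank 2, an alternative chosen after seeing the data. Ifnb1, Ifna1, Ifna4, Ifna5, Ifne, Ifnl2 and Ifnl3 had no read in any library, Ifna2 had 2 reads, both in CDs 1, and Ifnk had 8 over all libraries. For a gene without reads, 3 reads in a library set the upper limit.

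Receptors and signal carriers were well measured. Ifnar2, the chain of the type I receptor that binds ligand together with Ifnar1, averaged 33.1 ± 5.14 CPM in CDs, 32.7 ± 7.32 CPM in Model and 8.14 ± 2.03 CPM in Blank (SD, n = 3 each), with a log2 fold change over Blank of 2.02 ± 0.23 in CDs and 2.0 ± 0.23 in Model (SE; edgeR adjusted p = 0.00066 and 0.000464). Ifnar1 rose less, by 0.69 in CDs and 0.73 in Model on the log2 scale, and Il10rb, shared by the receptors of interferon lambda and interleukin 10 family members, by 0.40 and 0.34. The interferon gamma receptor chains were not called, with log2 fold changes of 0.32 in CDs and 0.08 in Model for Ifngr1 and -0.18 and -0.21 for Ifngr2. Jak1 rose by 0.50 in CDs and 0.60 in Model, and Jak2 and Tyk2 were not called.

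Guanylate-binding proteins are large GTPases that gather on intracellular bacteria and on the vacuoles around them. They made up the most uniform role group, with all 6 called in both comparisons. Gbp2 was at 291, 302 and 175 CPM in the CDs libraries 1, 2 and 3, 289, 82.99 and 177 CPM in the Model libraries and 82.3, 43.4 and 36.01 CPM in the Blank libraries, always in the order 1, 2, 3. Relative to Blank, Gbp2 stood on the log2 scale at 2.25 ± 0.48 in CDs and 1.76 ± 0.47 in Model (SE; edgeR adjusted p = 0.00747 and 0.0161). All CDs libraries exceeded every Blank library, while Model 2 lay only just above Blank 1. Gbp3 was at 94.4, 78.9 and 53.2 CPM in CDs, 80.97, 40.9 and 66.3 CPM in Model and 28.2, 19.3 and 14.8 CPM in Blank, in the same order of libraries. For Gbp3 the log2 fold change over Blank was 1.86 ± 0.32 in CDs and 1.59 ± 0.32 in Model (SE; edgeR adjusted p = 0.00322 and 0.00493). Gbp4 was at 131, 98.2 and 79.4 CPM in CDs, 86.05, 36.4 and 77.8 CPM in Model and 32.4, 17.7 and 15.6 CPM in Blank. Over Blank, Gbp4 had log2 fold changes of 2.23 ± 0.38 in CDs and 1.60 ± 0.38 in Model (SE; edgeR adjusted p = 0.00304 and 0.00959). In each of these 3 genes Model 2 was the lowest DSS-treated library and Blank 1 the highest untreated one.

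Gbp5, known to promote assembly of the NLRP3 inflammasome, had the largest change of the family. It was at 132, 84.2 and 62.9 CPM in CDs, 73.3, 45.1 and 76.3 CPM in Model and 15.8, 8.92 and 6.35 CPM in Blank. Relative to Blank, Gbp5 stood on the log2 scale at 3.16 ± 0.40 in CDs and 2.64 ± 0.39 in Model (SE; edgeR adjusted p = 0.000868 and 0.00121), which is 8.93-fold in CDs and 6.23-fold in Model. Gbp7 was at 116, 106 and 72.4 CPM in CDs, 113, 57.2 and 89.8 CPM in Model and 44.7, 28.1 and 25.7 CPM in Blank. For Gbp7 the log2 fold change over Blank was 1.58 ± 0.30 in CDs and 1.40 ± 0.30 in Model (SE; edgeR adjusted p = 0.00483 and 0.00647). Gbp9 was at 109, 84.5 and 69.5 CPM in CDs, 70.1, 59.3 and 79.3 CPM in Model and 22.6, 19.5 and 15.3 CPM in Blank. Over Blank, Gbp9 had log2 fold changes of 2.20 ± 0.21 in CDs and 1.86 ± 0.20 in Model (SE; edgeR adjusted p = 0.000347 and 0.000386). In all 3 genes the lowest DSS-treated library stood above the highest Blank library, and Gbp9 had the smallest standard errors of the family. The genes lie in clusters, Gbp2, Gbp3, Gbp5 and Gbp7 on chromosome 3 and Gbp4 and Gbp9 on chromosome 5. The deposited positions of Gbp4, Gbp9 and the neighbouring Gbp8 overlap on 1 strand, and relatives of the family are alike in sequence, so reads could be split between them and single values are uncertain. Gbp2 lost its Model call without Blank 2 or Blank 3 (1.54 to 1.63).

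Immunity-related GTPases fall into regulators that stay on the cell's own membranes and effectors that load onto pathogen vacuoles. Iigp1, an effector, was at 305, 249 and 181 CPM in CDs, 269, 84.1 and 218 CPM in Model and 54.6, 18.8 and 14.5 CPM in Blank. Relative to Blank, Iigp1 stood on the log2 scale at 3.06 ± 0.58 in CDs and 2.70 ± 0.57 in Model (SE; edgeR adjusted p = 0.00463 and 0.00603), and without Blank 1 these values became 3.89 in CDs and 3.52 in Model. Blank 1, at 54.6 CPM, stood nearer to Model 2 than to the other Blank libraries. Igtp, a regulator, was at 85.8, 91.4 and 45.9 CPM in CDs, 95.3, 30.1 and 51.8 CPM in Model and 35.9, 16.7 and 10.3 CPM in Blank. For Igtp the log2 fold change over Blank was 1.82 ± 0.53 in CDs and 1.49 ± 0.53 in Model (SE; edgeR adjusted p = 0.0276 and 0.0474). Its CDs call was lost without CDs 1, CDs 2, Blank 2 or Blank 3 (1.51 to 1.71) and its Model call without Model 1, Model 3, CDs 1, CDs 2, Blank 2 or Blank 3 (0.96 to 1.58), and without Blank 1 the values were 2.47 in CDs and 2.13 in Model. Irgm2, also a regulator, was at 142, 175 and 117 CPM in CDs, 191, 70.9 and 117 CPM in Model and 82.4, 42.7 and 35.6 CPM in Blank. Over Blank, Irgm2 had log2 fold changes of 1.43 ± 0.40 in CDs and 1.23 ± 0.40 in Model (SE; edgeR adjusted p = 0.0237 and 0.0342), calls lost in CDs without CDs 2, Blank 2 or Blank 3 (1.21 to 1.30) and in Model without Model 1, Model 3, Blank 2 or Blank 3 (0.80 to 1.29). Irgm2 and Igtp overlap on the same strand in the deposited table and are uncertain one by one. Irgm1 was not called, at 0.79 ± 0.36 in CDs and 0.75 ± 0.36 in Model (SE; edgeR adjusted p = 0.115 and 0.117).

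Cxcl9 and Cxcl10 are ligands of the receptor Cxcr3 and attract T cells and natural killer cells. Cxcl9, the more strictly interferon gamma-dependent of the pair, was at 92.8, 35.8 and 39.04 CPM in CDs, 24.6, 6.65 and 36.3 CPM in Model and 12.8, 3.50 and 1.84 CPM in Blank. Relative to Blank, Cxcl9 stood on the log2 scale at 3.19 ± 0.81 in CDs and 1.88 ± 0.79 in Model (SE; edgeR adjusted p = 0.0162 and 0.081). CDs 1 was the highest library, Model 2 fell between Blank 1 and the other Blank libraries, and the Blank libraries themselves ran over several-fold. The CDs call was lost without Blank 2 (2.92) and the CDs value was 4.38 without Blank 1, while in Model the gene was called without Model 2 or Blank 1 (2.32 to 3.07). Cxcl10 was at 45.5, 20.7 and 29.1 CPM in CDs, 15.7, 4.98 and 28.1 CPM in Model and 4.31, 1.92 and 3.32 CPM in Blank. For Cxcl10 the log2 fold change over Blank was 3.31 ± 0.62 in CDs and 2.34 ± 0.61 in Model (SE; edgeR adjusted p = 0.00432 and 0.0145). Every DSS-treated library exceeded every Blank library for Cxcl10, Model 2 narrowly. Its Model call was lost without Model 3 or Blank 2 (1.68 to 2.09). Beside these chemokines, summed T cell markers were at 131, 55.9 and 65.5 CPM in CDs, 52.4, 63.2 and 69.6 CPM in Model and 42.3, 15.6 and 19.0 CPM in Blank, and summed natural killer and cytotoxic markers at 47.0, 14.7 and 9.48 CPM in CDs, 15.5, 35.6 and 22.1 CPM in Model and 26.1, 4.39 and 2.29 CPM in Blank. Cxcl10 overlaps Art3 on the other strand, so part of its count is uncertain.

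**Figure D2:**
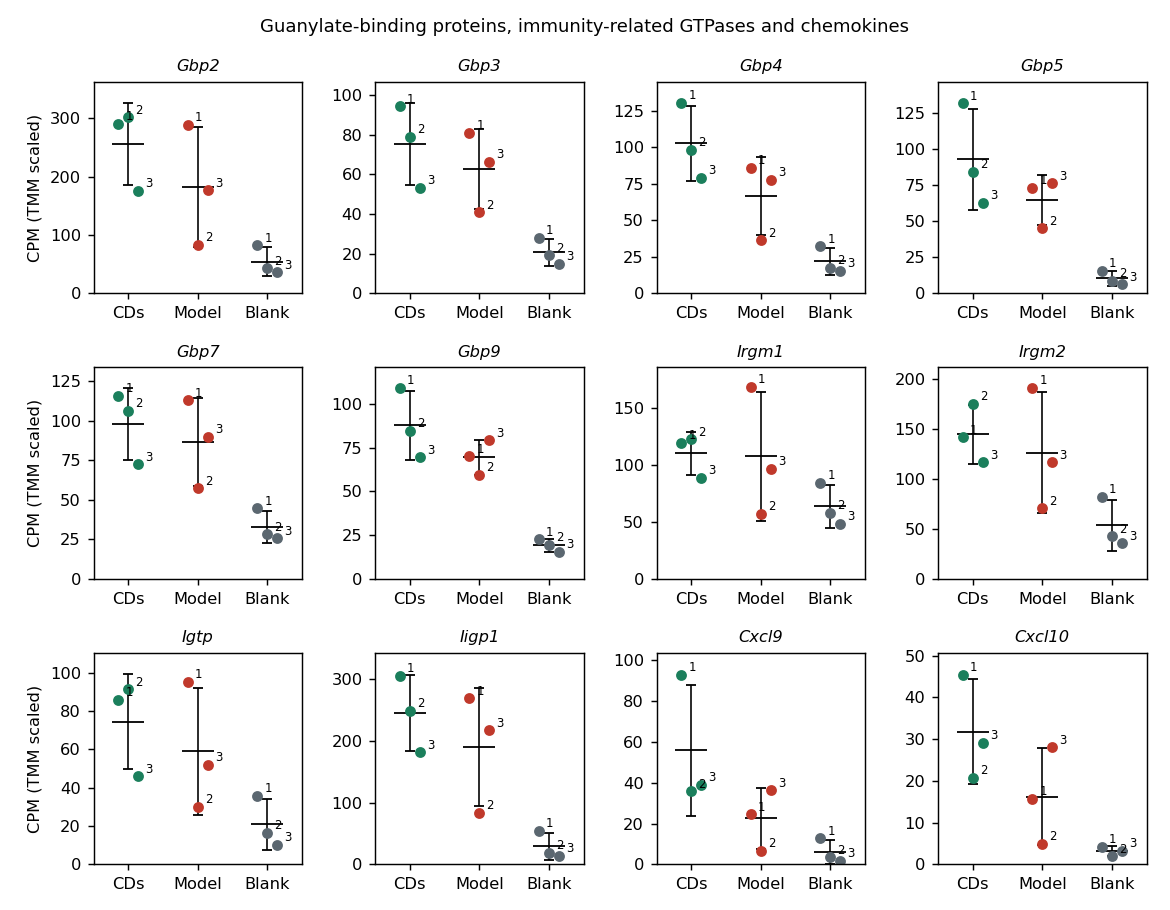
CPM after TMM scaling of 6 guanylate-binding proteins, 4 immunity-related GTPases and 2 chemokines in CDs, Model and Blank. Points are libraries marked with their replicate number, and bars show mean and SD over 3 libraries. For Gbp5, Gbp7, Gbp9 and Iigp1 all 6 DSS-treated libraries lie above all Blank libraries.

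Among the type I-leaning genes most did not pass the test. Ifit proteins bind foreign RNA. Ifit2 was at 109, 61.8 and 49.8 CPM in CDs, 98.2, 34.8 and 77.6 CPM in Model and 28.7, 17.5 and 19.3 CPM in Blank. Over Blank, Ifit2 had log2 fold changes of 1.75 ± 0.42 in CDs and 1.68 ± 0.42 in Model (SE; edgeR adjusted p = 0.0122 and 0.0117), and its CDs call was lost without Blank 2 (1.62). CDs and Model reached nearly the same level, with CDs 1 and Model 1 highest. Ifit1 and Ifit3, its neighbours on chromosome 19, were not called: Ifit1 had 0.50 ± 0.40 in CDs and 0.95 ± 0.40 in Model, and Ifit3 0.89 ± 0.39 and 0.93 ± 0.39 (log2 fold change over Blank ± SE). Without Model 2 both were called in Model, at 1.30 and 1.20, and without CDs 3 Ifit3 was called in CDs, at 1.17. Ifit3 has a near-identical copy, Ifit3b, and the 2 are uncertain one by one.

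Oas enzymes make oligoadenylates that activate RNase L. Oas2 was at 21.4, 16.7 and 9.34 CPM in CDs, 23.7, 7.60 and 22.3 CPM in Model and 6.75, 6.52 and 4.80 CPM in Blank. Relative to Blank, Oas2 stood on the log2 scale at 1.39 ± 0.44 in CDs and 1.56 ± 0.44 in Model (SE; edgeR adjusted p = 0.0379 and 0.0212). Its CDs call was lost without CDs 1, CDs 2, Blank 1, Blank 2 or Blank 3 (1.11 to 1.49) and its Model call without Model 1, Model 3, Blank 1, Blank 2 or Blank 3 (1.30 to 1.66). Model 2, at 7.60 CPM, lay close to Blank 1, at 6.75 CPM. Oas1a, the most highly expressed gene of this family per length, was at 42.4, 65.5 and 63.5 CPM in CDs, 66.7, 27.9 and 39.7 CPM in Model and 51.5, 52.5 and 44.9 CPM in Blank. For Oas1a the log2 fold change over Blank was 0.20 ± 0.29 in CDs and -0.15 ± 0.29 in Model (SE; edgeR adjusted p = 0.608 and 0.692), and CDs, Model and Blank libraries were intermixed. Oas3, Oasl1 and Oasl2 had log2 fold changes of 0.44, -0.11 and 0.67 in CDs and of 0.42, -0.14 and 0.74 in Model, and none was called, though Oasl2 was called in Model without Model 2, at 1.09. Mx proteins are GTPases that block viral nucleocapsids. Mx1 was at 11.6, 8.01 and 9.41 CPM in CDs, 13.6, 5.27 and 12.3 CPM in Model and 9.13, 7.27 and 8.56 CPM in Blank. Over Blank, Mx1 had log2 fold changes of 0.22 ± 0.32 in CDs and 0.31 ± 0.32 in Model (SE; edgeR adjusted p = 0.623 and 0.454). Mx2, at 0.65 ± 0.37 in CDs and 0.73 ± 0.37 in Model, was not called either, and Mx1 was called in Model only without Model 2, at 0.64. Oas1a has close relatives in the same cluster and is uncertain for that reason.

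**Figure D3:**
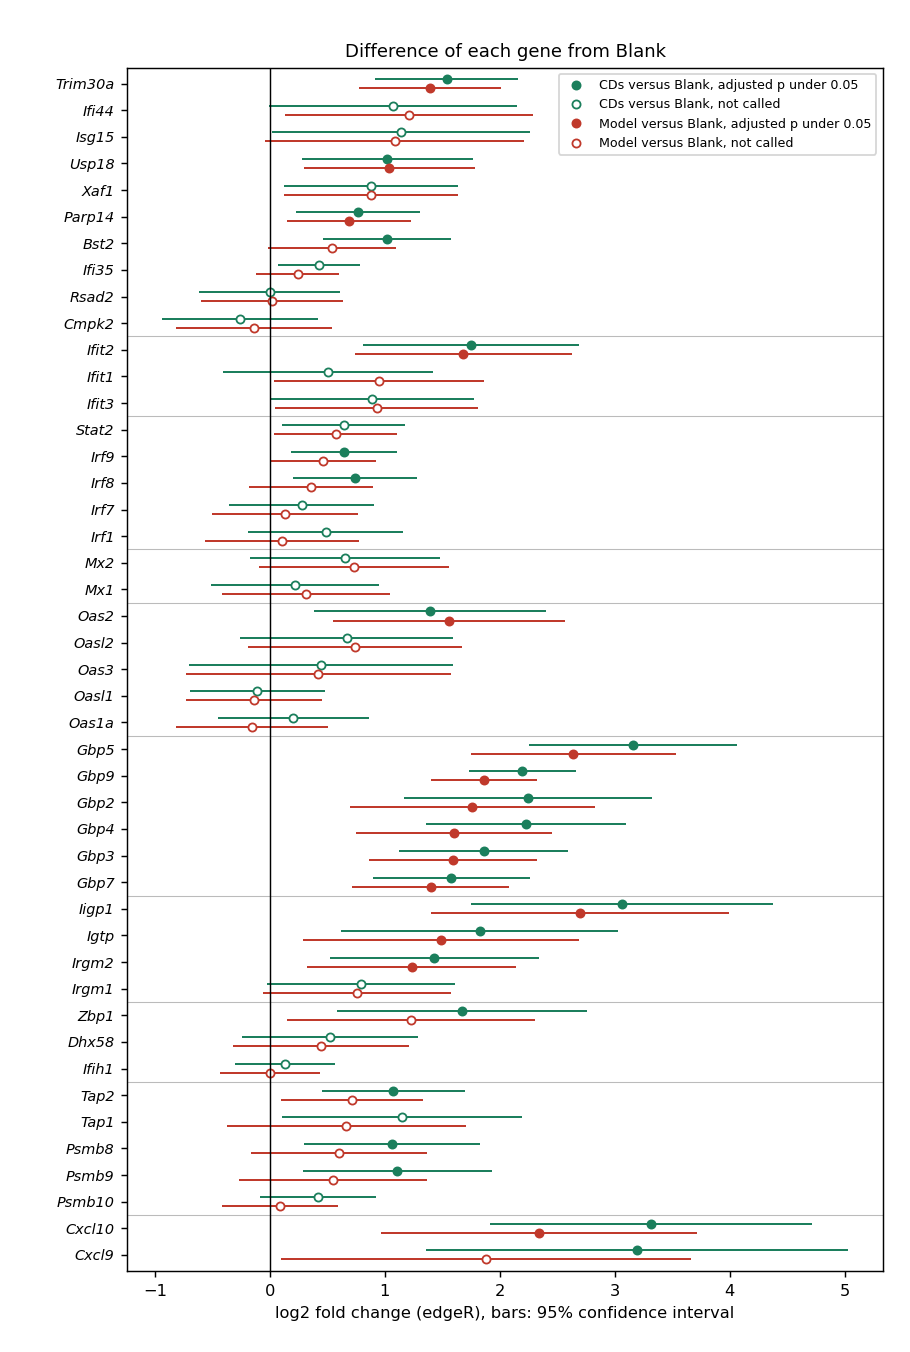
Log2 fold change over Blank of each of the 45 genes in CDs (green) and in Model (red), with 95% confidence intervals from edgeR. Filled points are called at an adjusted p under 0.05. Gbp genes, Iigp1 and Cxcl10 lie between 1.40 and 3.31, and Rsad2, Cmpk2, Ifih1 and Oasl1 lie at or near 0.

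Read per library, the interferon gamma-leaning genes lay further above the Blank mean than the type I-leaning ones in every DSS-treated library. For each library, the mean over a list of log2(CPM + 2) minus the Blank mean was taken for the 10 type I-leaning genes (Ifit, Oas, Oasl and Mx) and the 12 interferon gamma-leaning ones (Gbp, Irgm, Cxcl9 and Psmb). The type I-leaning score was 0.78, 0.63 and 0.24 in CDs 1, CDs 2 and CDs 3, 1.06, -0.20 and 0.74 in Model 1, Model 2 and Model 3, and 0.28, -0.07 and -0.21 in Blank 1, Blank 2 and Blank 3. The interferon gamma-leaning score was 2.03, 1.77 and 1.33 in CDs, 1.68, 0.65 and 1.41 in Model, and 0.56, -0.14 and -0.42 in Blank. All 6 DSS-treated libraries exceeded every Blank library on the interferon gamma-leaning score, and on the type I-leaning score Model 2 and CDs 3 did not.

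The type I-leaning score minus the interferon gamma-leaning score was -1.25, -1.15 and -1.08 in CDs, -0.62, -0.84 and -0.67 in Model, and -0.29, 0.07 and 0.22 in Blank. Means were -1.16 ± 0.08 in CDs, -0.71 ± 0.12 in Model and 0 ± 0.26 in Blank, which is 0 by construction (SD, n = 3 each). The CDs, Model and Blank libraries did not overlap on this difference, although Model libraries ran from -0.20 to 1.06 on the type I-leaning score alone. With Cxcl9 left out of the list the CDs mean was -1.05, and with Igtp and Iigp1 added it was -1.27. Without Blank 2 and Blank 3, so that Blank 1 alone sets the zero, it was -0.87 in CDs and -0.42 in Model. In single genes, 2 of 10 type I-leaning genes were called higher in CDs and 2 of 10 in Model (Ifit2 and Oas2 in both), with medians of 0.58 and 0.73. That share is about the same as over all genes, of which 21.8% were called higher in CDs and 24.5% in Model. Of the 12 interferon gamma-leaning genes 10 (83.3%) were called in CDs and 7 (58.3%) in Model, with medians of 1.72 and 1.49. Of these, 6 in each comparison were guanylate-binding proteins, and the other called in Model was Irgm2. Irgm1, Cxcl9, Psmb8, Psmb9 and Psmb10 were not called in Model, at 0.75, 1.88, 0.60, 0.55 and 0.09. The Model count thus rests mainly on the Gbp genes, and the scores were not taken without them. The type I-leaning count in Model was 6 without Model 2 and 1 without Model 1, Model 3 or any 1 Blank library, and in CDs it was 0 without Blank 2 and 1 without CDs 1, CDs 2, Blank 1 or Blank 3. The interferon gamma-leaning count in CDs was 6 without Blank 2. No test was applied to the scores.

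**Figure D4:**
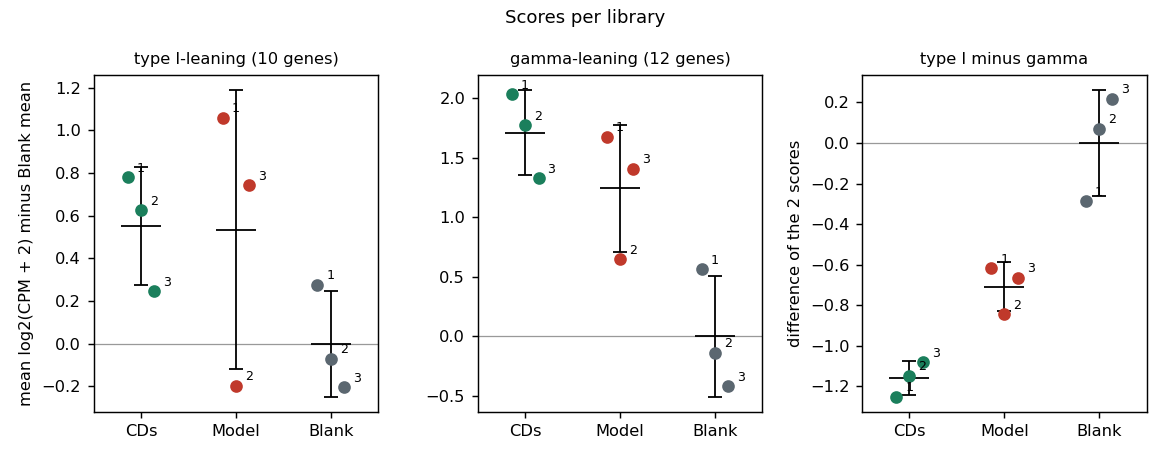
Per-library scores of the type I-leaning genes (left), the interferon gamma-leaning genes (middle) and their difference (right), in log2 units relative to the Blank mean. Points are libraries with their replicate number, and bars show mean and SD over 3 libraries. In the right panel CDs lies at -1.25 to -1.08, Model at -0.84 to -0.62 and Blank at -0.29 to 0.22.

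Antigen processing was called higher in CDs than in Blank for 3 of 5 genes, beside 21.8% of all genes, and for none in Model, beside 24.5%. With 5 genes these counts cannot be set apart from those shares. Between CDs and Model none of the 5 was called (edgeR, smallest adjusted p = 0.936). Psmb8, Psmb9 and Psmb10 are the interferon-inducible catalytic subunits of the immunoproteasome, and Tap1 and Tap2 carry its peptides into the endoplasmic reticulum. Tap2 was at 40.6, 41.6 and 28.9 CPM in CDs, 30.3, 22.5 and 34.1 CPM in Model and 25.3, 13.5 and 13.9 CPM in Blank. Relative to Blank, Tap2 stood on the log2 scale at 1.07 ± 0.27 in CDs and 0.72 ± 0.27 in Model (SE; edgeR adjusted p = 0.0165 and 0.0596). Its CDs call was lost without CDs 2, Blank 2 or Blank 3 (0.92 to 0.98), and without Blank 1 it was called in Model, at 1.08. Blank 1, at 25.3 CPM, lay within the Model range. Psmb8 and Psmb9 rose in CDs, by 1.06 ± 0.34 and 1.11 ± 0.36 (log2 fold change ± SE; edgeR adjusted p = 0.0372 and 0.0419), calls lost for Psmb8 without Model 3, CDs 1, CDs 2, Blank 2 or Blank 3 (0.83 to 1.07) and for Psmb9 without Model 3, CDs 1, CDs 2, Blank 2 or Blank 3 (0.84 to 1.11). In Model they had 0.60 and 0.55, and were called without Blank 1, at 1.08 and 1.04. Tap1 was not called, at 1.15 in CDs and 0.66 in Model, and was called without Blank 1, at 1.89 in CDs and 1.41 in Model. On all libraries, Tap1 was called in CDs with a replicate block, by DESeq2 and by both limma fits. Tap2 was called in Model by DESeq2 and both limma fits. Psmb10, the most abundant of these transcripts per length, was at 86.9, 98.1 and 69.1 CPM in CDs, 89.9, 46.2 and 66.03 CPM in Model and 68.4, 60.6 and 60.7 CPM in Blank and was not called (0.42 in CDs and 0.09 in Model). Psmb9 and Tap1 overlap on opposite strands, and all but Psmb10 lie together on chromosome 17.

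The immunoproteasome can also be set against its constitutive counterparts Psmb5, Psmb6 and Psmb7, none of which was called in either comparison. The ratio of summed counts per kilobase of the inducible to the constitutive subunits was 1.15, 1.24 and 0.967 in CDs, 1.09, 0.590 and 0.925 in Model, and 0.935, 0.672 and 0.599 in Blank. Means were 1.12 ± 0.14 in CDs, 0.870 ± 0.257 in Model and 0.736 ± 0.177 in Blank (SD, n = 3 each). CDs libraries all exceeded Blank libraries, CDs 3 by little over Blank 1, whereas Model and Blank overlapped. The two-sided exact permutation p was 0.1 between CDs and Blank, 0.7 between Model and Blank and 0.2 between CDs and Model, where 0.1 is the smallest that 20 arrangements allow, so this design could not reach 0.05. Of 6 other genes of MHC class I presentation, Nlrc5, the activator of MHC class I genes, was called in CDs (1.89 ± 0.54, edgeR adjusted p = 0.0257) and not in Model (1.42 ± 0.54, adjusted p = 0.0585), and H2-K1, H2-D1, B2m, Tapbp and Erap1 were called in neither. Between CDs and Model Nlrc5 was not called (edgeR adjusted p = 0.939). Nlrc5 is named after its values were seen.

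**Figure D5:**
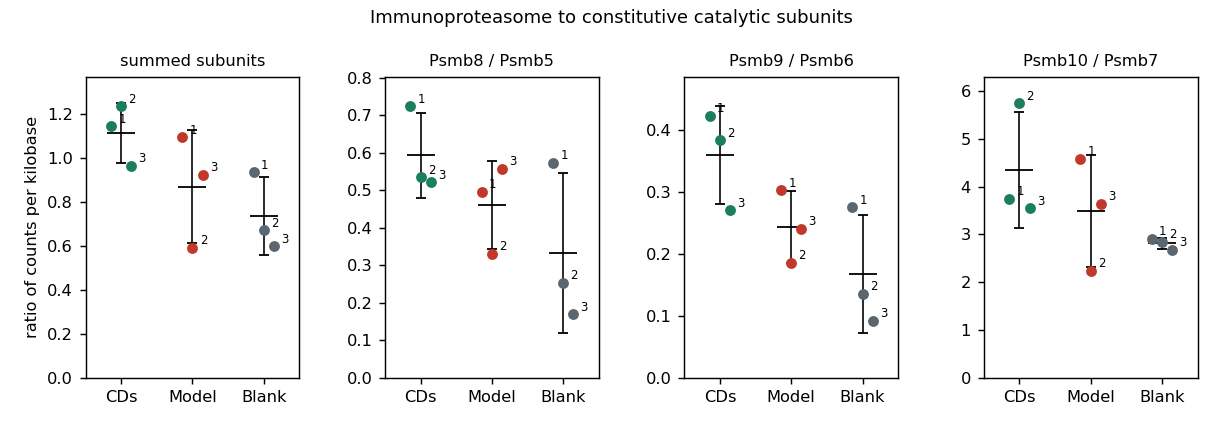
Ratio of inducible to constitutive catalytic proteasome subunits, summed (left) and pair by pair, from counts per kilobase, in CDs, Model and Blank. Points are libraries with their replicate number, and bars show mean and SD over 3 libraries. The summed ratio lies at 0.967 to 1.24 in CDs, 0.590 to 1.09 in Model and 0.599 to 0.935 in Blank.

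Of the 5 transcription factors 2 were called higher in CDs, beside 21.8% of all genes, and none in Model, beside 24.5%. With 5 genes these counts cannot be set apart from those shares, and none of the 5 was called between CDs and Model. Irf1, which is induced by interferon gamma, was at 162, 212 and 158 CPM in CDs, 201, 81.3 and 128 CPM in Model and 156, 116 and 108 CPM in Blank. For Irf1 the log2 fold change over Blank was 0.48 ± 0.30 in CDs and 0.11 ± 0.30 in Model (SE; edgeR adjusted p = 0.226 and 0.79). CDs libraries lay above Blank libraries by a small margin, and Model spanned both. Irf9, the DNA-binding part of its complex with Stat2, was at 70.05, 68.3 and 55.9 CPM in CDs, 73.4, 41.6 and 56.98 CPM in Model and 48.5, 39.2 and 36.6 CPM in Blank. Over Blank, Irf9 had log2 fold changes of 0.64 ± 0.20 in CDs and 0.47 ± 0.20 in Model (SE; edgeR adjusted p = 0.0369 and 0.0912), with the CDs call lost without Model 3, CDs 1, CDs 2, Blank 2 or Blank 3 (0.57 to 0.65) and a Model call gained without Model 2, at 0.65. Irf8, a factor of myeloid cells, was called in CDs (0.74 ± 0.24, edgeR adjusted p = 0.0395), a call lost without Model 3, CDs 1, CDs 2, CDs 3, Blank 2 or Blank 3 (0.63 to 0.82), and not in Model (0.35 ± 0.24). Stat2 was not called, at 0.64 in CDs and 0.57 in Model. It was called in CDs without Model 1 or Model 2, at 0.64 in both, and in Model without Model 2, at 0.80. Irf7, the amplifier of type I interferon production, was not called, at 0.28 ± 0.28 in CDs and 0.13 ± 0.28 in Model. Irf7 overlaps Phrf1 and Irf9 overlaps Rnf31, so both carry some uncertainty.

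Nucleic acid sensors differed from each other. Zbp1, a sensor of Z-form nucleic acids that can start necroptosis, was at 141, 122 and 83.7 CPM in CDs, 129, 31 and 95.3 CPM in Model and 50.02, 35.5 and 23.4 CPM in Blank. Relative to Blank, Zbp1 stood on the log2 scale at 1.67 ± 0.48 in CDs and 1.23 ± 0.48 in Model (SE; edgeR adjusted p = 0.0262 and 0.063). The CDs call was lost without CDs 1, CDs 2, Blank 2 or Blank 3 (1.44 to 1.66), and without Model 2, which lay among the Blank libraries, it was called in Model, at 1.63. Ifih1 and Dhx58, cytoplasmic sensors of viral RNA, were not called, at 0.13 ± 0.19 in CDs and 0.00 ± 0.19 in Model for Ifih1 and 0.52 ± 0.34 and 0.45 ± 0.34 for Dhx58. Dhx58 was called in Model without Model 2, at 0.79. Of 13 measured sensors and adaptors outside the 45 genes, 6 were called higher in Model, beside 24.5% of all genes. They were Tlr7 (1.96), Irf5 (1.81), Sting1 (1.59), Tlr9 (1.48), Myd88 (0.97) and Ddx58 (0.48). Called lower were 2, Mavs (-0.50) and Ticam1 (-0.46), which is no larger a share than the 19.6% of all genes called lower. In CDs 5 were called higher and none lower, beside 21.8% and 13.8% of all genes.

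Among the remaining antiviral effectors, Trim30a, Parp14 and Usp18 were called in both comparisons and Bst2 in CDs. Trim30a, a mouse TRIM protein, was at 101, 78.3 and 60.9 CPM in CDs, 83.7, 49.5 and 84.3 CPM in Model and 33.5, 29.1 and 20.3 CPM in Blank. For Trim30a the log2 fold change over Blank was 1.54 ± 0.27 in CDs and 1.39 ± 0.27 in Model (SE; edgeR adjusted p = 0.00351 and 0.00425), and every DSS-treated library exceeded every Blank library. Parp14, an ADP-ribosyltransferase, was at 191, 187 and 192 CPM in CDs, 237, 116 and 187 CPM in Model and 137, 104 and 94.9 CPM in Blank. Over Blank, Parp14 had log2 fold changes of 0.76 ± 0.24 in CDs and 0.69 ± 0.24 in Model (SE; edgeR adjusted p = 0.0353 and 0.0429). Its CDs call was lost without Model 3, CDs 1, CDs 2, CDs 3, Blank 2 or Blank 3 (0.66 to 0.77) and its Model call without Model 1, Model 3, CDs 2, CDs 3, Blank 2 or Blank 3 (0.44 to 0.69). Usp18, which removes Isg15 from proteins and dampens the type I receptor, was at 8.64, 6.10 and 4.34 CPM in CDs, 7.33, 4.42 and 7.71 CPM in Model and 4.05, 2.54 and 2.80 CPM in Blank. Relative to Blank, Usp18 stood on the log2 scale at 1.02 ± 0.33 in CDs and 1.04 ± 0.33 in Model (SE; edgeR adjusted p = 0.0395 and 0.0311). Its CDs call was lost without Model 3, CDs 1, CDs 2, Blank 2 or Blank 3 (0.74 to 1.05) and its Model call without Model 1, Model 3, Blank 2 or Blank 3 (0.90 to 0.97). Bst2, or tetherin, which holds budding virus at the cell surface, was at 52.6, 46.3 and 28.2 CPM in CDs, 30.6, 26.8 and 34.1 CPM in Model and 23.9, 23.3 and 15.6 CPM in Blank. For Bst2 the log2 fold change over Blank was 1.02 ± 0.25 in CDs and 0.54 ± 0.25 in Model (SE; edgeR adjusted p = 0.013 and 0.101). In Bst2 all DSS-treated libraries exceeded all Blank libraries, and without CDs 3 it was also called in Model, at 0.55.

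The other effectors were not called in either comparison. Isg15, a ubiquitin-like modifier, had log2 fold changes of 1.14 ± 0.50 in CDs and 1.08 ± 0.50 in Model, Ifi44 of 1.07 ± 0.48 and 1.21 ± 0.48, and Xaf1 of 0.88 ± 0.33 and 0.88 ± 0.33 (SE). All 3 were called in Model without Model 2, at 1.48, 1.58 and 1.17, and in CDs Isg15 and Ifi44 without Model 2 (1.14 and 1.07) and Xaf1 without Model 1 or Model 2 (0.88 in both). Ifi35 had 0.43 in CDs and 0.24 in Model, and was called in CDs without Model 1, at 0.43. Rsad2, or viperin, which makes a chain-terminating nucleotide, had -0.00 in CDs, with a 95% interval of -0.62 to 0.61, and 0.02 in Model, with an interval of -0.60 to 0.64. Cmpk2, a nucleotide kinase next to Rsad2 on chromosome 12, had -0.26 (-0.94 to 0.42) in CDs and -0.14 (-0.82 to 0.54) in Model. Intervals of this width do not show that the levels were alike.

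Per length, the order of the transcripts differed between groups. In CDs the highest mean level of the 45 was that of Gbp2, at 102 ± 27.9 FPKM, beside 72.7 ± 40.9 FPKM in Model and 21.4 ± 9.89 FPKM in Blank (SD, n = 3 each). In Blank the highest was Psmb10, at 37.1 ± 2.63 FPKM, beside 49.7 ± 8.56 FPKM in CDs and 39.5 ± 12.8 FPKM in Model. It was followed in Blank by Irf1 at 31.9 ± 6.47, Oas1a at 26.3 ± 2.21, Bst2 at 23.2 ± 5.07 and Gbp2, and from each of these to the next the ranges of mean ± SD overlapped. Mx2 was lowest in all 3 groups, at 0.918 ± 0.230 FPKM in CDs, 0.976 ± 0.355 FPKM in Model and 0.582 ± 0.207 FPKM in Blank.

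Carbon dots given with DSS, set against DSS alone, gave no called difference in any of the 45 genes (edgeR), and none among all 14921 genes (0% called). At an unadjusted p under 0.05, 0 of 45 genes passed, beside 788 of all genes (5.28%). DESeq2 called 0 of the 45 genes, beside 5 higher and 34 lower among all genes, and limma on log2(FPKM + 1) called none. The smallest p among the 45 was that of Bst2, 0.0817 (edgeR; adjusted p = 0.936), with a log2 fold change of 0.48 ± 0.24 (SE; 95% interval -0.07 to 1.02). Cxcl9 had 1.32 ± 0.74 (interval -0.36 to 3.0), Cxcl10 0.98 ± 0.55 (-0.27 to 2.22), Gbp4 0.62 ± 0.36 (-0.20 to 1.45) and Gbp9 0.33 ± 0.19 (-0.10 to 0.77), so these data allow CDs levels below, equal to or well above those of Model. The CDs and Model libraries overlapped in all 45 genes, whereas they did not overlap in 7.99% of all genes.

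In direction, 35 of the 45 genes had a positive log2 fold change in CDs versus Model, beside 8232 of all 14921 genes, with a median of 0.18, beside 0.02. All 12 interferon gamma-leaning genes were positive (median 0.40), and 4 of 10 type I-leaning ones (median -0.06). The sign of the median over the 45 genes rested on Model 2: without that library it was -0.06, and without Model 1 it was 0.41. With Model 1, Model 3 and CDs 1 left out, so that Model 2 alone stood for Model, 7 of the 45 genes were called higher in CDs, beside 4.88% of all genes.

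In Model and Blank the libraries kept nearly 1 order across the 45 genes, and in CDs less so. Model 2 was the lowest Model library in 44 of 45 genes, beside 35.0% of all tested genes, and Model 1 the highest in 37, beside 39.2%. Blank 1 was the highest Blank library in 44 of 45, beside 34.4% of all genes, and Blank 3 the lowest in 34, beside 32.5%. CDs 1 was the highest CDs library in 30, beside 39.2% of all genes, and CDs 2 in 12, beside 30.0%, and CDs 3 was the lowest in 35, beside 31.8%. Model 2 was also the Model library without an Ifng read, and CDs 3, with 3, had the fewest in CDs. Other values set these libraries apart too. Pancreatic acinar transcripts summed to 1.04 CPM in Model 2, beside 4800 and 41242 CPM in Model 1 and Model 3. In CDs 1, CDs 2 and CDs 3 they summed to 154, 0.777 and 0.882 CPM. Prostate and seminal vesicle transcripts summed to 2.19 CPM in Blank 1, beside 1497 and 169 CPM in Blank 2 and Blank 3. Summed neutrophil markers were 2130 CPM in Model 2, beside 225 and 442 CPM in Model 1 and Model 3. Fibroblast markers were 11381 CPM in Model 2, beside 5062 and 8600 CPM. Blank 1 had the highest T cell and natural killer sums of its group, given above. Which of these, if any, goes with the level of the 45 genes was not tested.

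Beyond the 45 genes, 30 further interferon-induced genes were examined, and 11 (36.7%) were called higher in CDs and 9 (30.0%) in Model, none lower, beside 21.8% of all genes called higher in CDs and 24.5% in Model, so the share in Model was near that of all genes. The largest change in Model was that of Ifitm1, one of the membrane proteins that block virus entry, at 177 ± 58.6 CPM in CDs, 270.5 ± 129 CPM in Model and 15.4 ± 0.601 CPM in Blank (SD, n = 3 each). Its log2 fold changes were 3.52 ± 0.37 in CDs and 4.14 ± 0.38 in Model (SE; edgeR adjusted p = 0.000498 and 0.000269). With the CDs value first and the Model value second, Ifitm3 had log2 fold changes of 2.39 and 2.64, Gbp6 of 2.62 and 2.0, and the GTPases Tgtp1 and Tgtp2 of 2.22 and 2.03 and of 2.13 and 1.90. Ifitm2 (1.42 and 1.88), Ifi27l2a (1.72 and 1.87), Ifi47 (1.68 and 1.39) and Gbp8 (1.76 and 1.38) were the others called in Model. Gbp10 and Gbp11 were called in CDs and not in Model (2.93 and 2.37, with 1.38 and 1.74 in Model), a difference between CDs and Model that was itself not called. In Blank 1, Blank 2 and Blank 3 Gbp10 was at 0.64, 0.07 and 0 CPM and Gbp11 at 0.45, 0.41 and 0.30 CPM. Both were near the floor there, and their fold changes rest on few reads. Of 6 measured genes listed as feedback regulators 5 were called higher in both comparisons, beside 21.8% of all genes in CDs and 24.5% in Model. The list was not limited to feedback on interferon. The largest change was that of Socs3, an inhibitor of cytokine receptors, at 3.85 in CDs and 3.68 in Model. The others were Socs1 (1.80 and 1.61), Ptpn6 (1.11 and 0.83), Samhd1 (1.07 and 0.78) and Ptpn2 (0.55 and 0.62). Over all lists of pathway genes outside the 45, 25 of 68 tested (36.8%) were called higher and 2 (2.94%) lower in Model, beside 24.5% and 19.6% of all genes.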

How the data were processed

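Poly-A RNA of whole mouse colon was sequenced in 3 groups of 3 libraries. Groups follow the sample titles and treatments. The submitters' processing notes name HTSeq 0.9.1, HISAT2 2.1.0 and fastp 0.22.0, with no genome build. The authors deposited a read count per gene and library. The authors also deposited FPKM values, which equalled count over gene length and library total in 100% of values, within a relative tolerance of 1e-06. The library protocol has no strand-marking step.

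Counts of all 9 libraries were fitted in edgeR 4.0.16 (quasi-likelihood F test, R 4.3.3) with TMM scaling and the edgeR expression filter, and p-values were adjusted by Benjamini and Hochberg over 14921 genes. CPM are TMM scaled, and group levels in FPKM are these CPM per kilobase. Alternatives were a replicate block, the 6 libraries compared, RLE scaling, no filter, DESeq2 1.42.0, limma 3.58.1 on log2(FPKM + 1) and log2(FPKM + 0.1), and libraries left out. Scores used log2(CPM + 2). The fit was tested on simulated counts. Deposited positions carry no build here and are not mixed with the RefSeq promoters of GRCm38.p6. Values per library are given for the 20 genes with the smallest p among those called, the highest per length of each role, both chemokines and the 5 genes of smallest p between CDs and Model. Pathway genes named are those called in Model, plus Ifng and Ifnb1, except for 1 gene that is not reported here, and others were named after their values were seen. The genes and lists were chosen with earlier results of these data known.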

Additional observations from a re-analysis of the deposited data

How the results depend on the processing

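Replicate numbers did not pair the libraries: the correlation of deviations of libraries with the same number was -0.01, -0.04 and -0.04 between Model and Blank, 0.17, 0.12 and 0.06 between CDs and Blank, and -0.27, 0.21 and -0.37 between CDs and Model. With a replicate block 17 of the 45 genes were called higher in Model and 23 in CDs, beside 23.2% and 19.9% of all genes. Type I-leaning genes called in CDs then numbered 1. Pathway genes called lower in Model numbered 1, beside 2216 of all 14921 genes. The counts of 15 in Model and 23 in CDs stayed within 1.5 times under the 6 libraries compared, RLE scaling, no filter, DESeq2 and both limma fits, while DESeq2 called 4 type I-leaning genes in Model and limma on log2(FPKM + 1) called 1 in CDs. Single calls depended on the test. DESeq2 added Ifit1, Ifit3, Ifi44, Xaf1, Zbp1 and Tap2 in Model, and Stat2, Tap1 and Xaf1 in CDs. Both limma fits added Tap2 in Model, and Ifi35, Stat2 and Tap1 in CDs. Leaving out 1 library at a time gave, in Model, 8 to 28 of the 45 genes, 1 to 6 type I-leaning, 5 to 10 interferon gamma-leaning, 16 to 29 pathway genes higher and 0 to 3 lower, and in CDs 10 to 28 of the 45, 0 to 3 type I-leaning and 6 to 11 interferon gamma-leaning genes. In these settings 19.3% to 25.8% of all genes were called higher in Model and 15.4% to 21.9% in CDs. Called lower in Model were 1478 to 3561 of all genes. The mean of type I minus interferon gamma ran over -1.30 to -1.05 in CDs and -0.85 to -0.60 in Model. The log2 proteasome ratio ran over 0.49 to 0.81 for CDs versus Blank (0.95 as the mean of subunit ratios) and 0.14 to 0.59 for CDs versus Model (0.43). For Model versus Blank it was 0.22 with all libraries, 0.03 to 0.48 with 1 left out and 0.52 as the mean of subunit ratios. The summed ratio gives most weight to Psmb10, at 37.1 FPKM in Blank beside 5.76 for Psmb8 and 5.74 for Psmb9.

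Without Model 1, Model 3 and CDs 1, Model called 4 of the 45 genes higher and 4 lower, with 0 type I-leaning and 3 interferon gamma-leaning genes higher, 15 pathway genes higher and 9 lower. CDs versus Model then called 7, the Model mean of type I minus interferon gamma was -0.84, and Irf7 (-0.75) and Ifih1 (-0.47) turned to called lower in Model. Without Blank 2 and Blank 3, 1 of the 45 genes was called in each of Model and CDs, with 0 type I-leaning and 1 interferon gamma-leaning gene in each, and in Model 8 pathway genes were called higher and 0 lower. That setting gave -0.87 in CDs and -0.42 in Model for type I minus interferon gamma, beside -1.05 without Cxcl9 and -1.27 with Igtp and Iigp1 added in CDs. Settings that leave 1 library in a group assume that it varies like the others, and fewer libraries widen the error by construction. Otherwise the cause was not tested.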
